A study of Mus musculus with 9 samples.

Results

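Aldehyde dehydrogenases (ALDH enzymes) are the enzyme family that the drug disulfiram is known to inhibit. Transcripts of 10 mouse genes of this family were followed over 9 libraries of brain RNA: Aldh1a1, Aldh1a2, Aldh1a3, Aldh1l1, Aldh1l2, Aldh2, Aldh3a2, Aldh3b1, Aldh7a1 and Aldh9a1. They were chosen by name, as the entries of the deposited gene table whose symbol equals a listed one, and all 10 were found among its 22482 genes. A further 11 genes of the same superfamily stand in the table and are given beside them. The members were listed with earlier results of these data known, so a contrast between these sets is not independent support.

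The libraries form 3 groups of 3. C-β-LG/DSF mice were injected with C-β-LG/DSF through a tail vein after traumatic brain injury (TBI). TBI mice had the injury, made by a falling weight, and are not labelled as treated. Sham mice had the skull drilled and the dura opened, with the brain left undamaged. Tissue was taken at the injury or at the matching place in Sham. The abbreviation DSF is not spelled out in the labels and is read here as disulfiram. No group given the carrier alone was analysed here, so the effects of drug and carrier cannot be told apart. The sources used here give no strain, genotype, sex, age, dose or time after injury. Nor do they state that each library is a separate animal, so a p-value here reflects only how much these samples vary, which may be technical.

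An aldehyde dehydrogenase oxidises an aldehyde to its acid, with NAD+ or NADP+ as the electron acceptor and a cysteine of the active site as the nucleophile. Disulfiram and its metabolites react with that cysteine in ALDH2 and ALDH1A1, so that acetaldehyde builds up after alcohol. The family members differ in substrate: retinaldehyde for the Aldh1a genes, 10-formyltetrahydrofolate for the Aldh1l genes, acetaldehyde and lipid peroxidation products for Aldh2, fatty and other lipid aldehydes for Aldh3a2 and Aldh3b1, and aldehydes from lysine, choline or carnitine metabolism for Aldh7a1 and Aldh9a1. In brain, Aldh1l1 is a widely used astrocyte marker, Aldh1a1 is a marker of a subset of midbrain dopamine neurons, and Aldh1a2 is expressed in the meninges. What was measured is transcript level; enzyme activity was not.

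The codon of the catalytic cysteine is shown for 9 members because it is where disulfiram acts on the enzymes it inhibits. Each window is read 5′ to 3′ on the coding strand of a GENCODE M21 transcript (build GRCm38), and the capitals mark the cysteine codon. In Aldh9a1 the window joins exons 6 and 7, and the coordinates span the intron between them.
Aldh1a1, chr19:20630710-20630736, plus strand, exon 12: caaggccaatgtTGTgtcgcagcatcc
Aldh1a2, chr9:71283422-71283448, plus strand, exon 9: caaggccagtgcTGCaccgcagggtct
Aldh1a3, chr7:66406088-66406114, minus strand, exon 9: caaggccagtgcTGTacagcggcctcc
Aldh1l1, chr6:90591825-90591851, plus strand, exon 19: aaaggggagaacTGCattgcggcaggc
Aldh1l2, chr10:83497520-83497546, minus strand, exon 19: aaaggagagaacTGCattgcagctggg
Aldh2, chr5:121572790-121572816, minus strand, exon 9: cagggccagtgcTGCtgcgcaggctcc
Aldh3a2, chr11:61258804-61258830, minus strand, exon 5: tgtggtcaaaccTGCattgctcctgac
Aldh3b1, chr19:3918808-3918834, minus strand, exon 7: gccggccagaccTGTgtggcccccgat
Aldh9a1, chr1:167357442-167361420, plus strand, exons 6 and 7: caaggacaggtcTGCtgcaatgggact
The cysteine is spelled TGT in Aldh1a1, Aldh1a3 and Aldh3b1 and TGC in the others shown. The codon just before it is also a cysteine codon in Aldh1a1, Aldh1a2, Aldh1a3 and Aldh2.

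RefSeq promoter entries (GRCm38.p6) were matched for 6 of the members whose sequence is shown. The 250 bases before a RefSeq start are given for 3 of the 4 genes that were higher in TBI than in Sham (below). Aldh1l2, the fourth, is named only. For Aldh1l1 and Aldh3b1 that start lies inside the gene as placed below (90486427 to 90600203 and 3913491 to 3929808), not at its first base. The Aldh3b1 window therefore holds some bases of the gene itself, and the Aldh1l1 window lies within the gene. The capitals mark the CCAAT box, searched as CCAAT, and the antioxidant response element, searched as TGACNNNGC, each on both strands.
Aldh1l1, chr6:90550543-90550792, plus strand: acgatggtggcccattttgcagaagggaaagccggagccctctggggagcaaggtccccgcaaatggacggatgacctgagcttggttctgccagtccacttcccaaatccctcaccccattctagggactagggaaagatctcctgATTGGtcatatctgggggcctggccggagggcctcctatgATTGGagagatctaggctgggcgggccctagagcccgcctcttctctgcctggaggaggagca
Aldh3b1, chr19:3929779-3930028, minus strand: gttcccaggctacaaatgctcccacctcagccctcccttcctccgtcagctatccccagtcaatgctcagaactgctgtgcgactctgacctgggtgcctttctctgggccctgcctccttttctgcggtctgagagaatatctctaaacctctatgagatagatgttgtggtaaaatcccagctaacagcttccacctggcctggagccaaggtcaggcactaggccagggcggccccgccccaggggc
Aldh9a1, chr1:167349741-167349990, plus strand: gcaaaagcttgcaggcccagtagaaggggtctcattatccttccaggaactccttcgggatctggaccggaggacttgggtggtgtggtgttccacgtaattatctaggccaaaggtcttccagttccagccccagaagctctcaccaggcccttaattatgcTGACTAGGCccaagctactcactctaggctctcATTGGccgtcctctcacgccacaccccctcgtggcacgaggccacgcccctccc
Aldh1l1 held 2 CCAAT boxes, Aldh9a1 held 1 of each motif, and neither motif was found in the Aldh3b1 window. Among 32851 RefSeq promoters of the same length, 33.8% held a CCAAT box and 10.2% an antioxidant response element. A C/EBP-ATF response element (TGATGNAA, in 3.45% of promoters) and a TATA box (TATAAA, in 12.4%) were searched for as well and were found in none of the 3. The 2 motifs that were found do not overlap in the Aldh9a1 window. A match is a description of the letters in a window.

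The authors deposited FPKM, fragments scaled to transcript length and to library size, so levels of different genes can be compared per length. The fragment count per library is not given. Depth estimated from the steps of low values lay between 0.936 and 1.09 times that of Sham 1, and 12566 to 13312 genes per library had an FPKM of at least 1. The tissue label fitted its markers: all 10 neuron markers were measured, with sums of 2372 to 2891 FPKM in C-β-LG/DSF, 1822 to 2590 FPKM in TBI and 3622 to 3733 FPKM in Sham. C-β-LG/DSF libraries 2 and 3 and TBI 3 stood apart in the summed FPKM of 10 markers of thalamic neurons, with 199.1, 139.1 and 268.7. The other injured libraries had 54.3 to 69.4 and the Sham libraries 44.1 to 48.2. As every injured library lay above every Sham library, a fit with the thalamic marker level as covariate cannot fully separate that level from injury. TBI 3 also had the highest sum of choroid plexus markers, 285.7 FPKM, against at most 45.0 FPKM in any other library. Most of the sum in TBI 3 was 1 gene, Ttr, with 270.0 FPKM. Without Ttr the sum was 4.339 to 12.97 FPKM in C-β-LG/DSF, 5.426 to 15.7 FPKM in TBI and 1.586 to 4.092 FPKM in Sham. Some members are also given without the 3 libraries of high thalamic markers. The marker lists, the gene lists and the other ALDH genes are given only with all libraries. Without the 3, C-β-LG/DSF 1 is the only treated library, so differences of C-β-LG/DSF are then given as sizes only.

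Differences below are log2 differences of FPKM + 0.5 from limma, fitted on all 14292 genes with an FPKM of at least 0.5 in at least 3 libraries, and a gene is called at a Benjamini-Hochberg adjusted p under 0.05 over all of them. The added 0.5 understates the change of low genes. Of the 10 members, 9 passed the filter and Aldh1a3 did not.

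Per length, Aldh2 had the highest level of the 10 genes in every library. Its FPKM was 81.5, 72.5 and 75.5 in the C-β-LG/DSF libraries, 87.3, 70.2 and 78.6 in the TBI libraries and 61.1, 70.3 and 59.9 in the Sham libraries. That was 32.9% to 40.9% of the summed FPKM of the 10 genes in a library. The sum itself was 200.3 to 212.9 FPKM in C-β-LG/DSF, 199.9 to 249.7 FPKM in TBI and 154.4 to 172.1 FPKM in Sham, so every injured library lay above every Sham library.

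**Figure D1:**
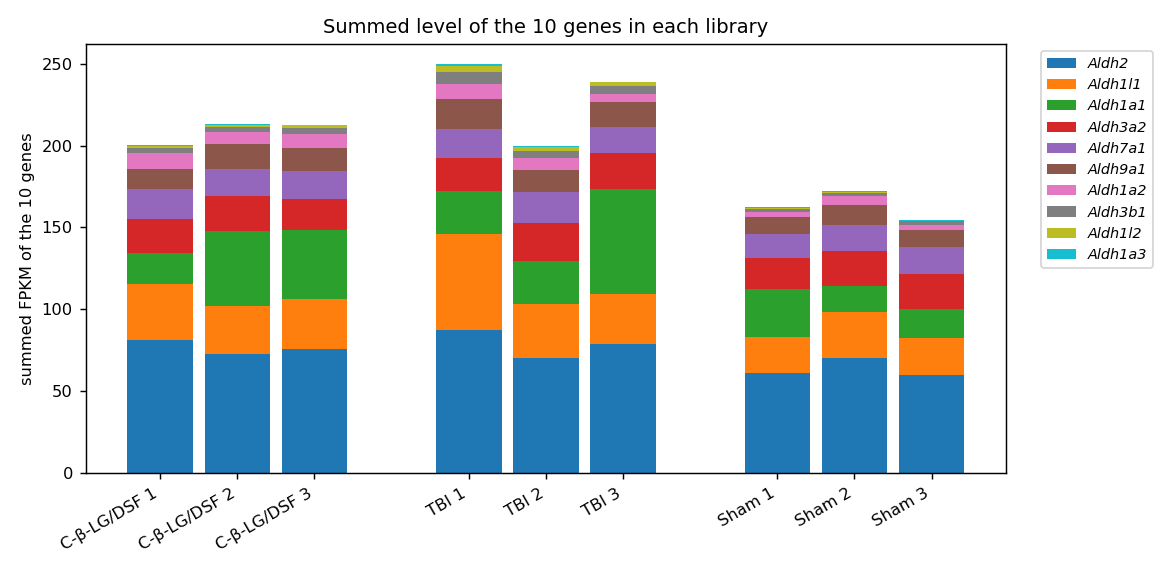
Summed FPKM of the 10 genes in each library, stacked by gene in the order of the legend. The C-β-LG/DSF and TBI libraries reach 199.9 to 249.7 FPKM and the Sham libraries 154.4 to 172.1 FPKM; the Aldh1a1 segment is tallest in TBI 3, where it is 27.0% of the sum.

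In Sham the mean levels ran from Aldh2 through Aldh1l1 (24.2 FPKM), Aldh1a1 (21.2), Aldh3a2 (20.4), Aldh7a1 (15.7), Aldh9a1 (11.0), Aldh1a2 (4.12), Aldh3b1 (1.86) and Aldh1l2 (0.501) to Aldh1a3 (0.279). Neighbours in this order were separated in all libraries except Aldh1l1 and Aldh1a1, Aldh1a1 and Aldh3a2, and Aldh1l2 and Aldh1a3, whose ranges overlapped. TBI had the same order of means, with overlapping ranges for Aldh1l1 and Aldh1a1, Aldh7a1 and Aldh9a1, and Aldh1a2 and Aldh3b1. C-β-LG/DSF differed in that Aldh1a1 stood above Aldh1l1, with overlapping ranges.

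**Figure D2:**
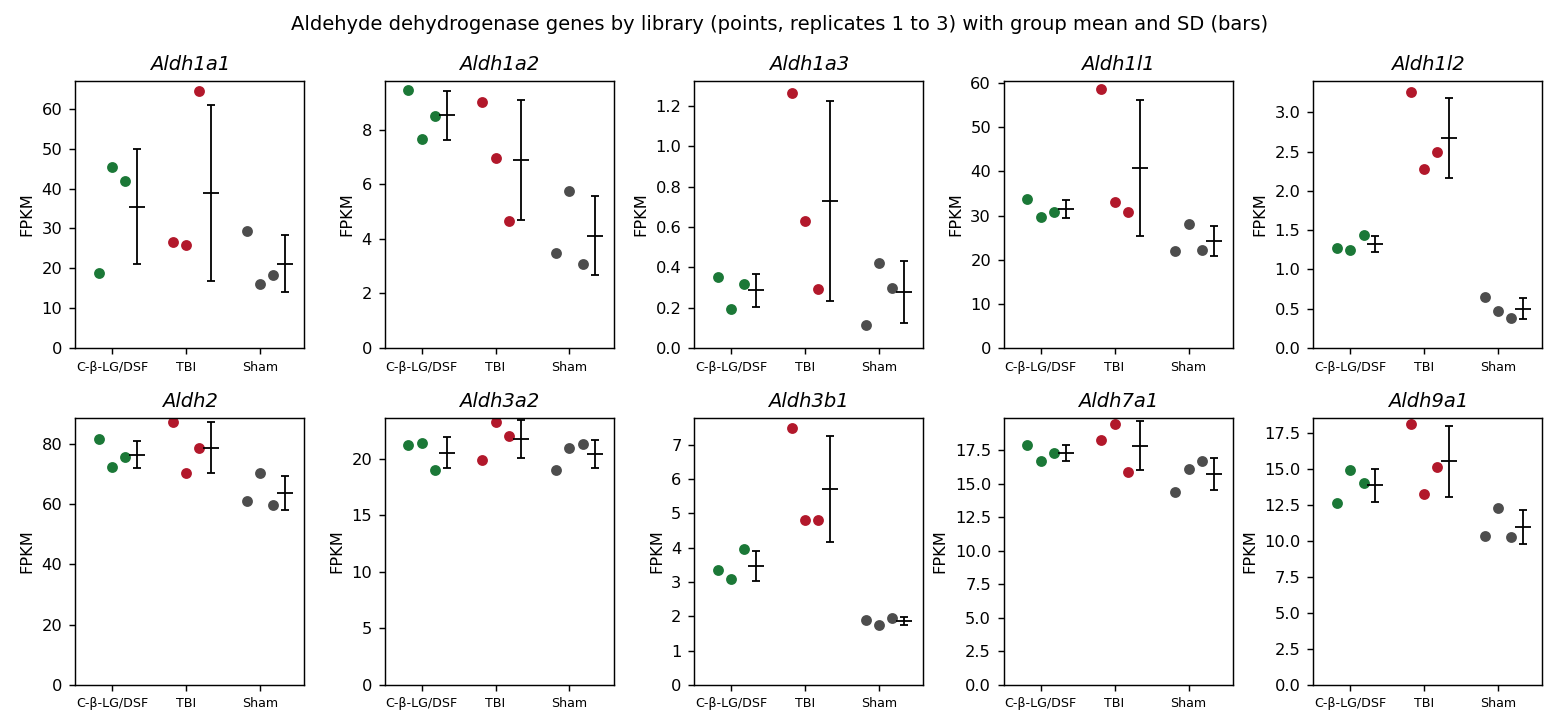
FPKM of each gene in the 3 libraries of C-β-LG/DSF, TBI and Sham (points in replicate order), with the group mean and SD (bars, n = 3 libraries); each panel starts at 0 and has its own scale. Aldh1l2 and Aldh3b1 show 3 separate ranges, with C-β-LG/DSF between TBI and Sham, while Aldh3a2 lies between 18.98 and 23.25 FPKM throughout.

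The comparison of TBI with Sham asked what the injury changed at its site. The injured tissue held more transcript of 4 of the 9 tested members, and no member was called lower. They were Aldh1l2, the mitochondrial folate enzyme, with 2.67 ± 0.513 FPKM in TBI and 0.501 ± 0.131 FPKM in Sham; Aldh3b1, which oxidises aldehydes derived from lipids, with 5.71 ± 1.55 FPKM in TBI and 1.86 ± 0.116 FPKM in Sham; Aldh1l1, the cytosolic folate enzyme; and Aldh9a1, of carnitine and GABA synthesis (SD, n = 3 each). Among all genes tested, 14.9% were called higher and 12% lower, together 26.8%. The median difference was 0.68 over the 9 members and 0.01 over all genes. All TBI libraries lay above all Sham libraries for those same 4 members, against 22.6% of all genes. The 9 differences were all positive, as were 50.9% of those of all genes.

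Setting C-β-LG/DSF against TBI addresses what the preparation did to expression in the injured tissue. No member was called, and no gene at all was: 0% of 14292 passed limma's adjusted threshold, with 1693 genes at an unadjusted p under 0.05 and a smallest adjusted p of 0.361. Aldh1l2 and Aldh3b1 were the 2 members with no overlap between the groups, with every C-β-LG/DSF library below every TBI library; 9.28% of all genes had that pattern. Differences were negative for 8 of 9 members and for 53.3% of all genes, with medians of -0.10 and -0.02.

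C-β-LG/DSF against Sham sets treated injured tissue against the uninjured site. Of the 9 members, 3 were called higher and none lower: Aldh1a2, which makes retinoic acid, Aldh1l2 and Aldh3b1. Of all genes, 13.3% were called, 6.37% higher and 6.88% lower. The split of all calls depended on the scaling, with 911 higher and 984 lower in FPKM as deposited and 1321 higher and 704 lower after scaling to equal totals. In 7 of the 9 members every C-β-LG/DSF library lay above every Sham library, a pattern that 22% of all genes had. All 9 differences were positive, against 51.4% of those of all genes. The median difference was 0.38 for the members and 0.01 for all genes. The comparisons share their Sham or TBI libraries and so are not independent of each other.

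**Figure D3:**
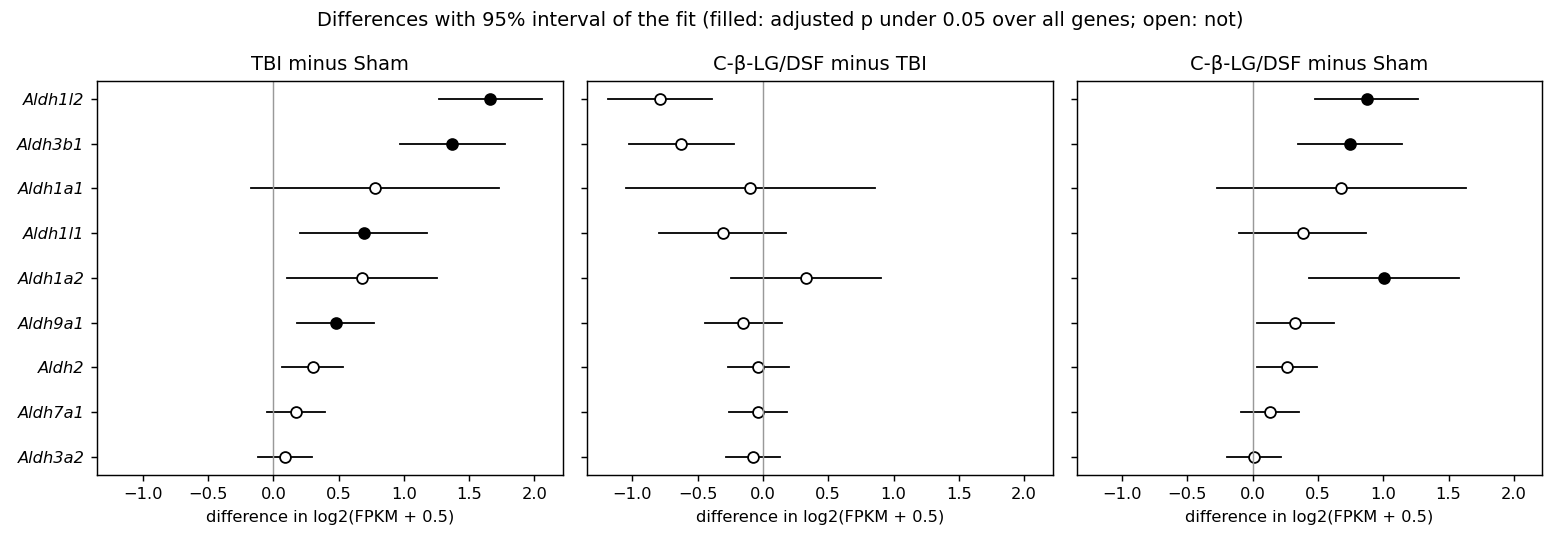
Log2 differences of the 9 tested genes in the 3 comparisons, with the 95% interval of the fit for that gene alone; filled points were called at an adjusted p under 0.05 over all genes. Aldh1l2 and Aldh3b1 are at the top of TBI minus Sham, lie left of 0 in C-β-LG/DSF minus TBI without being called, and lie right of 0 in C-β-LG/DSF minus Sham.

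The 10-formyltetrahydrofolate dehydrogenases release carbon dioxide and tetrahydrofolate and give NADPH, in the cytosol (Aldh1l1) and in mitochondria (Aldh1l2). Aldh1l2 (ENSMUSG00000020256.14, chromosome 10, 83487450 to 83534140, minus strand) had 1.28, 1.25 and 1.44 FPKM in C-β-LG/DSF, 3.25, 2.28 and 2.49 FPKM in TBI, and 0.644, 0.469 and 0.389 FPKM in Sham. No range overlapped another: TBI was highest, Sham lowest and C-β-LG/DSF between them. TBI exceeded Sham by 1.66 (SE 0.18, adjusted p = 0.00085), and this call held under all 20 alternatives tried, where the difference was 1.29 to 2.21. C-β-LG/DSF exceeded Sham by 0.87 (SE 0.18, adjusted p = 0.0141). That call was lost without Sham 3 (0.79, adjusted p = 0.0598) and without C-β-LG/DSF 3 (0.83, adjusted p = 0.0678). It was also lost with quantile normalization (0.56, adjusted p = 0.0635). Without the 3 libraries of high thalamic markers, which leaves only C-β-LG/DSF 1 as treated, the difference was 0.84. C-β-LG/DSF minus TBI was -0.79 (95% interval -1.19 to -0.39, unadjusted p = 0.0014, adjusted p = 0.394), which did not pass. Precision is limited at this level: in the authors' deposited intervals the lower bound was 0 in all 3 C-β-LG/DSF and all 3 Sham libraries and in none of the TBI libraries. Aldh1l2 overlaps D10Wsu102e on the other strand, which had 0.395 to 0.477 FPKM over the 9 libraries. The kit marks strand, per the labels, but whether the counting used it is not given in the sources used here.

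Aldh1l1 (ENSMUSG00000030088.15, chromosome 6, 90486427 to 90600203, plus strand) had 33.8, 29.8 and 30.9 FPKM in C-β-LG/DSF, 58.6, 33.1 and 30.7 FPKM in TBI, and 22.1, 28.1 and 22.3 FPKM in Sham. TBI 1 stood well above the other libraries, and both injured groups lay above Sham without overlap. TBI exceeded Sham by 0.69 (SE 0.22, adjusted p = 0.0421), and without TBI 1 the difference was 0.40 (adjusted p = 0.0464). The call was lost without any single Sham or C-β-LG/DSF library. The adjusted p was 0.126, 0.0553 and 0.124 without Sham 1, 2 and 3 and 0.056, 0.0582 and 0.0633 without C-β-LG/DSF 1, 2 and 3, whose removal leaves the difference as it is. It was also lost with no filter (adjusted p = 0.0625), with no mean trend (0.0563) and in a fit of TBI and Sham only (0.0843). C-β-LG/DSF minus Sham was 0.38 (adjusted p = 0.273) and C-β-LG/DSF minus TBI was -0.31 (95% interval -0.80 to 0.18). Neither passed, although the excess of C-β-LG/DSF over Sham did in a fit of those groups only (adjusted p = 0.0383) and without TBI 1 (adjusted p = 0.0377).

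Some markers of astrocytes were also called. Of 12 other astrocyte markers, all tested and none at 0, 5 were called higher in TBI than in Sham and 3 in C-β-LG/DSF than in Sham, and none was called lower. The glutamate transporter gene Slc1a2 had differences from Sham of -0.23 in C-β-LG/DSF and -0.26 in TBI, which did not pass. The called markers were led by Gfap, the intermediate filament of reactive astrocytes, which was higher than in Sham by 3.66 in C-β-LG/DSF and by 4.60 in TBI. The sum of all 12 markers was 2096 to 2131 FPKM in C-β-LG/DSF, 2265 to 3116 FPKM in TBI and 1273 to 1579 FPKM in Sham. Without Gfap the sum was 1441 to 1719 FPKM in C-β-LG/DSF, 1469 to 1722 FPKM in TBI and 1228 to 1537 FPKM in Sham, and the groups overlapped. Such a sum weighs genes of high FPKM most, such as Aldoc, with a mean of 587 FPKM in TBI and 513 FPKM in Sham. Besides Gfap, the markers called in TBI against Sham were Aqp4 (2.11), Gja1 (0.92), Sox9 (0.75) and S100b (0.53). Differences from Sham were positive for 11 of the 12 markers in either injured group. In bulk tissue, a change in the number of cells of a type and a change in RNA per cell cannot be told apart, and the part of these markers in the Aldh1l1 difference was not tested.

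Among genes of lipid aldehydes, Aldh3b1 (ENSMUSG00000024885.8, chromosome 19, 3913491 to 3929808, minus strand) had 3.35, 3.10 and 3.96 FPKM in C-β-LG/DSF, 7.51, 4.82 and 4.82 FPKM in TBI, and 1.88, 1.73 and 1.96 FPKM in Sham. The 3 ranges were separate, in the same order as for Aldh1l2. Precision is limited in Sham, where the authors' deposited lower bound was 0 in all 3 libraries, as it was in none of the injured libraries. TBI exceeded Sham by 1.37 (SE 0.18, adjusted p = 0.0015), a call that held under all 20 alternatives with differences of 1.11 to 1.54. C-β-LG/DSF exceeded Sham by 0.75 (SE 0.18, adjusted p = 0.0251). This call was lost whenever any Sham or any C-β-LG/DSF library was left out, with adjusted p of 0.0777, 0.0826 and 0.0716 without Sham 1, 2 and 3 and of 0.055, 0.0511 and 0.109 without C-β-LG/DSF 1, 2 and 3. It was also lost with quantile normalization (adjusted p = 0.0828). Without the 3 libraries of high thalamic markers, which leaves only C-β-LG/DSF 1 as treated, the difference was 0.71. C-β-LG/DSF minus TBI was -0.63 (95% interval -1.02 to -0.23, unadjusted p = 0.00618, adjusted p = 0.394). Its close relatives Aldh3b2 and Aldh3b3 had means of at most 0.586 and 0.0213 FPKM in any group, and reads that could belong to either copy make the level of Aldh3b1 uncertain to that extent.

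Aldh1l2 and Aldh3b1 were the most alike pair of members (Pearson r = 0.978 over the 9 libraries, a description in which the points share the group differences). Of 12 markers of microglia, the resident macrophages of brain, 8 were called higher in C-β-LG/DSF than in Sham and all 12 in TBI than in Sham. Their sum was 516.3 to 770.0 FPKM in C-β-LG/DSF, 697.4 to 1673 FPKM in TBI and 230.9 to 278.5 FPKM in Sham, and none was at 0. Of 11 tested markers of monocytes and other macrophages, 2 were called higher in C-β-LG/DSF than in Sham and 6 in TBI than in Sham, with sums of 84.1 to 144.8 FPKM in C-β-LG/DSF, 241.0 to 523.9 FPKM in TBI and 15.0 to 33.3 FPKM in Sham. Most of the sum in the injured groups was Lyz2, the lysozyme gene, and without it the sum was 30.2 to 40.3 FPKM in C-β-LG/DSF, 29.8 to 90.6 FPKM in TBI and 11.7 to 28.9 FPKM in Sham. The monocyte marker Ly6c2 had negative differences from Sham, -0.49 in C-β-LG/DSF and -2.16 in TBI (adjusted p = 0.733 and 0.0821). The part of these cells in the values of either gene was not tested.

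Aldh3a2, the fatty aldehyde dehydrogenase that is defective in human Sjögren-Larsson syndrome, had the smallest differences from Sham of the 9 tested members. It is ENSMUSG00000010025.19 on chromosome 11, 61223417 to 61267464, minus strand. Its level was 21.2, 21.4 and 19.0 FPKM in C-β-LG/DSF, 19.9, 23.3 and 22.0 FPKM in TBI, and 18.98, 20.96 and 21.26 FPKM in Sham, with all groups overlapping. TBI minus Sham was 0.09 (95% interval -0.12 to 0.29), C-β-LG/DSF minus TBI was -0.08 (-0.28 to 0.13) and C-β-LG/DSF minus Sham was 0.01 (-0.20 to 0.22). None passed, and these intervals bound what the libraries could show.

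**Figure D4:**
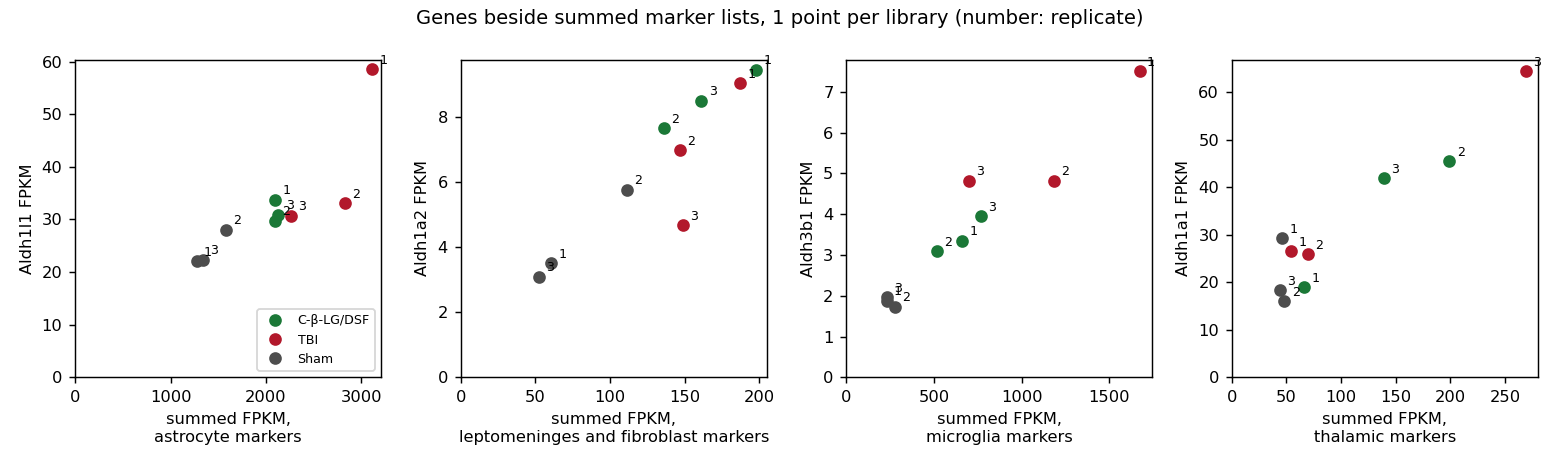
FPKM of Aldh1l1, Aldh1a2, Aldh3b1 and Aldh1a1 against the summed FPKM of a marker list in the same library, 1 point per library, coloured by group and numbered by replicate. Aldh1a1 is highest in C-β-LG/DSF libraries 2 and 3 and in TBI 3, the libraries with the highest thalamic marker sums, from 139.1 to 268.7 FPKM.

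The retinaldehyde dehydrogenases Aldh1a1, Aldh1a2 and Aldh1a3 make retinoic acid, the ligand of nuclear receptors. Aldh1a2 (ENSMUSG00000013584.5, chromosome 9, 71215789 to 71296243, plus strand) had 9.44, 7.65 and 8.49 FPKM in C-β-LG/DSF, 9.03, 6.97 and 4.66 FPKM in TBI, and 3.50, 5.77 and 3.09 FPKM in Sham. All C-β-LG/DSF libraries lay above all Sham libraries, while TBI overlapped both. The excess of C-β-LG/DSF over Sham was 1.01 (SE 0.26, adjusted p = 0.032). It was lost without Sham 1 or 3 (adjusted p = 0.112 and 0.115) and without C-β-LG/DSF 1, 2 or 3 (0.0832, 0.0658 and 0.104). It was also lost with no filter (adjusted p = 0.0533) and with quantile normalization (0.0523). Without the 3 libraries of high thalamic markers, which leaves only C-β-LG/DSF 1 as treated, the difference was 1.15. TBI minus Sham was 0.68 (SE 0.26, adjusted p = 0.0783), which did not pass with all libraries but did without Sham 2 (0.92, adjusted p = 0.0334) or TBI 3 (0.91, adjusted p = 0.0184). It also passed without the 3 libraries of high thalamic markers (adjusted p = 0.0486) and with the thalamic marker level as covariate (0.97, adjusted p = 0.0161). C-β-LG/DSF minus TBI was 0.33 (95% interval -0.24 to 0.90), the only positive difference of a member in that comparison.

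Of 12 markers of leptomeninges and fibroblasts, all tested, 5 were called higher in TBI than in Sham and 6 in C-β-LG/DSF than in Sham. The collagen and matrix genes Col3a1, Col1a1, Col1a2, Dcn and Lum were called in both comparisons, while the transporter genes Slc13a4, Slc47a1 and Slc6a13 and Ogn and Igf2 were called in neither. In C-β-LG/DSF minus TBI, where Aldh1a2 was at 0.33, 8 of the 12 markers had positive and 4 negative differences, with a median of 0.30. The negative ones were Col3a1 at -0.92, Lum at -0.66, Col1a1 at -0.32 and Col1a2 at -0.14. The positive ones ran from Bmp6 at 0.26 to Slc13a4 at 0.50, and none of the 12 passed. The sum of all 12 markers was 136.5 to 197.8 FPKM in C-β-LG/DSF, 147.2 to 187.2 FPKM in TBI and 52.5 to 111.5 FPKM in Sham, and none was at 0. Their part in the Aldh1a2 difference was not tested.

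Aldh1a1 (ENSMUSG00000053279.7, chromosome 19, 20492715 to 20643465, plus strand) had 18.9, 45.5 and 41.9 FPKM in C-β-LG/DSF, 26.5, 26.0 and 64.4 FPKM in TBI, and 29.3, 16.0 and 18.3 FPKM in Sham. The groups overlapped, and the 3 libraries above 40 FPKM were C-β-LG/DSF 2 and 3 and TBI 3, those with the highest thalamic marker sums. The same libraries had the highest sums of oligodendrocyte markers, 4939, 4767 and 9354 FPKM, against 1714 to 3223 FPKM in the others. They also had the highest sums of 8 markers of midbrain dopamine neurons, 34.5, 78.3 and 40.4 FPKM, against 7.83 to 23.4 FPKM in the others. Without Ddc the sum was 19.4 to 56.4 FPKM in C-β-LG/DSF, 5.09 to 27.7 FPKM in TBI and 9.18 to 15.9 FPKM in Sham. Nr4a2 alone had a mean of 11.0 FPKM in Sham. Slc6a3 had 6.88 ± 11.2 FPKM in C-β-LG/DSF and 2.57 ± 4.28 FPKM in TBI (SD), so its level differed widely between libraries of a group. Of the 5 dopamine neuron markers that were tested, none was called in any comparison, and En1 and Foxa1 were at 0 in all Sham libraries. The part of these cells in the Aldh1a1 values was not tested. TBI minus Sham was 0.78 (SE 0.42, adjusted p = 0.207) and C-β-LG/DSF minus Sham was 0.68 (SE 0.42, adjusted p = 0.319). Without those 3 libraries, which leaves only C-β-LG/DSF 1 as treated, TBI minus Sham was 0.35 and C-β-LG/DSF minus Sham was -0.11. Fitted with the thalamic marker level as covariate they were 0.09 for TBI minus Sham and -0.19 for C-β-LG/DSF minus Sham. That level was lower in every Sham library than in every injured library, which limits what this fit can separate. The C-β-LG/DSF minus TBI difference was -0.10 (95% interval -1.05 to 0.85), and 0.33 without TBI 3. The near copy Aldh1a7 had means of at most 0.643 FPKM in any group, so the share of reads it could exchange with Aldh1a1 is uncertain.

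Aldh1a3 (ENSMUSG00000015134.15, chromosome 7, 66390890 to 66427517, minus strand) was near the limit of the data. Its level was 0.350, 0.195 and 0.316 FPKM in C-β-LG/DSF, 1.27, 0.632 and 0.291 FPKM in TBI, and 0.116, 0.423 and 0.297 FPKM in Sham. TBI 1 and TBI 2 were above all other libraries and TBI 3 was within the range of the other groups, and the authors' deposited lower bound was 0 in all 9 libraries. Exact two-sided permutation tests gave p = 0.3 for TBI against Sham, 0.3 for C-β-LG/DSF against TBI and 0.9 for C-β-LG/DSF against Sham, in a design that cannot give less than 0.1.

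Aldh2 (ENSMUSG00000029455.14, chromosome 5, 121566027 to 121593824, minus strand) is the mitochondrial enzyme that clears acetaldehyde and the target behind the alcohol reaction to disulfiram. Its mean was 76.5 ± 4.61 FPKM in C-β-LG/DSF, 78.7 ± 8.50 FPKM in TBI and 63.7 ± 5.71 FPKM in Sham (SD, n = 3 each). All C-β-LG/DSF libraries lay above all Sham libraries, while TBI 2 fell within the Sham range. TBI minus Sham was 0.30 (SE 0.10, adjusted p = 0.059) and C-β-LG/DSF minus Sham was 0.26 (SE 0.10, adjusted p = 0.124). Neither passed, and the call against Sham turned on the scaling: with equal totals or with quantile normalization TBI against Sham passed (adjusted p = 0.0313 and 0.019), as it did without TBI 2 (adjusted p = 0.0314). C-β-LG/DSF against Sham passed with equal totals (0.35, adjusted p = 0.0438). Between C-β-LG/DSF and TBI the difference was -0.04, with a 95% interval of -0.27 to 0.20.

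Aldh9a1 oxidises trimethylaminobutyraldehyde on the way to carnitine and aminobutyraldehyde to GABA. It is ENSMUSG00000026687.14 on chromosome 1, 167349991 to 167368532, plus strand. Its level was 12.6, 14.9 and 14.0 FPKM in C-β-LG/DSF, 18.1, 13.3 and 15.2 FPKM in TBI, and 10.3, 12.3 and 10.3 FPKM in Sham. Both injured groups lay above Sham without overlap, and they overlapped each other. TBI exceeded Sham by 0.48 (SE 0.13, adjusted p = 0.0252). The call was lost without Sham 1 (adjusted p = 0.0855), Sham 3 (0.0894) or TBI 1 (0.0661), in a fit of TBI and Sham only (0.0528), with the thalamic marker level as covariate (0.0512) and without the 3 libraries of high thalamic markers (0.49, adjusted p = 0.0725). C-β-LG/DSF minus Sham was 0.33 (adjusted p = 0.128) and C-β-LG/DSF minus TBI was -0.15 (95% interval -0.44 to 0.14).

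Aldh7a1 (ENSMUSG00000053644.13) oxidises aminoadipic semialdehyde in lysine breakdown, and its loss in humans causes pyridoxine-dependent epilepsy. It had 17.9, 16.7 and 17.3 FPKM in C-β-LG/DSF, 18.2, 19.4 and 15.9 FPKM in TBI, and 14.4, 16.1 and 16.7 FPKM in Sham. The lowest C-β-LG/DSF library exceeded the highest Sham library by a small margin, and TBI overlapped both. Differences were 0.18 for TBI minus Sham (95% interval -0.05 to 0.40), -0.04 for C-β-LG/DSF minus TBI (-0.26 to 0.18) and 0.14 for C-β-LG/DSF minus Sham (-0.09 to 0.36), and none passed. It overlaps Phax on the other strand, which had 17.6 to 22.1 FPKM, a level close to its own.

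Of the other 11 genes of the superfamily, 9 were tested. In these, 1 (11.1%) was called higher in TBI than in Sham and none lower, with a median difference of 0.05. That gene, Aldh16a1, an unusual member whose enzyme activity in mammals is unclear, had 4.90 ± 1.31 FPKM in TBI and 2.44 ± 0.166 FPKM in Sham (difference 0.85, adjusted p = 0.021). Its deposited lower bound was 0 in all 3 Sham and all 3 C-β-LG/DSF libraries and in none of the TBI libraries. Differences between TBI and Sham that did not pass were 0.41 for Aldh1b1, 0.22 for Aldh4a1, 0.17 for Aldh18a1, 0.05 for Aldh1a7, -0.05 for Aldh3b2, -0.10 for Aldh6a1, -0.17 for Aldh5a1, which clears succinic semialdehyde from GABA, and -0.41 for Aldh3a1. Aldh3b3 and Aldh8a1 were below the filter, with means of at most 0.0213 and 0.0561 FPKM in any group. In C-β-LG/DSF none of the 9 was called against TBI or against Sham. Summed over the 11 genes the level was 65.3 to 70.5 FPKM in C-β-LG/DSF, 69.4 to 70.6 FPKM in TBI and 66.2 to 68.8 FPKM in Sham, so that TBI lay just above Sham and C-β-LG/DSF overlapped both. Whether the members and the other genes differ as sets was not tested. The members were listed with earlier results of these data known, so their medians may reflect that choice.

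Genes that work with the members were counted from lists by function, with up to 3 genes of smallest p in TBI against Sham named from each. The shares called are read against those of all genes, which were 14.9% higher and 12% lower in TBI against Sham, and 6.37% higher and 6.88% lower when C-β-LG/DSF was set against Sham. Of 21 tested retinoid genes, 6 (28.6%) were called higher and 1 (4.76%) lower in TBI than in Sham (median 0.48). Dhrs3, which reduces retinaldehyde back to retinol, had 22.0 ± 4.49 FPKM in TBI and 9.71 ± 1.113 FPKM in Sham (difference 1.12, adjusted p = 0.00379). Tgm2, a transglutaminase that retinoic acid induces, differed by 1.31. The gene called lower was Rbp4, the retinol carrier of plasma (-0.62, adjusted p = 0.0232). In C-β-LG/DSF against Sham, 4 (19%) were called higher and none lower (median 0.50), with Dhrs3 at 0.71.

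Of 23 tested genes of folate metabolism, which supply or use the substrate of Aldh1l1 and Aldh1l2, 3 (13%) were called higher and 1 (4.35%) lower in TBI than in Sham (median 0.19), shares no larger than those of all genes. Mthfd2, a mitochondrial methylenetetrahydrofolate dehydrogenase, had 5.07 ± 1.42 FPKM in TBI and 2.53 ± 0.199 FPKM in Sham (difference 0.84, adjusted p = 0.0112). Gcsh, of the glycine cleavage system, was higher by 0.46. Mthfd1l, the mitochondrial formyltetrahydrofolate synthetase, was lower, with a difference of -0.44 (adjusted p = 0.0271). In C-β-LG/DSF against Sham, Mthfd2 (0.71) was the gene called higher and Mthfd1l (-0.54) the gene called lower, 4.35% in each direction.

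Enzymes that form aldehydes from alcohols or amines, or clear them by other routes, had 6 of 18 (33.3%) called higher and none lower in TBI than in Sham (median 0.31). They included the aldo-keto reductase gene Akr1b8 (1.67), Adh5, the formaldehyde-clearing alcohol dehydrogenase (0.46), and the glutathione transferase gene Gstm1 (0.50); the last and Akr1b8 have close relatives in the genome and are uncertain to that extent. In C-β-LG/DSF against Sham, Adh5 alone of the 18 (5.56%) was called (0.28, adjusted p = 0.0305). Genes of fatty aldehyde, ether lipid and sphingosine 1-phosphate metabolism went both ways, with 4 of 18 (22.2%) higher and 3 (16.7%) lower in TBI than in Sham (median -0.11). The acyl-CoA synthetase genes Acsl5 (-0.58) and Acsl1 (-0.40) were lower and the acid ceramidase gene Asah1 (0.49) was higher. C-β-LG/DSF against Sham had 2 (11.1%) higher and 2 (11.1%) lower.

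Genes of lysine, choline, carnitine and polyamine metabolism had 4 of 13 (30.8%) called higher and none lower in TBI than in Sham (median 0.60). Sat1, the enzyme that acetylates polyamines for breakdown, had 78.2 ± 16.9 FPKM in TBI and 30.9 ± 4.17 FPKM in Sham (difference 1.31, adjusted p = 0.00132). The spermine oxidase gene Smox (0.50) and the sarcosine dehydrogenase gene Sardh (0.69) were also higher, and 1 of the 13 (7.69%) was called higher in C-β-LG/DSF than in Sham. Of 3 tested genes for other proteins reported as bound by disulfiram or its metabolites, Gsdmd, the pore-forming gasdermin D, was called higher against Sham in TBI (1.83) and in C-β-LG/DSF (1.15), with C-β-LG/DSF minus TBI at -0.68 (adjusted p = 0.394). Nploc4 and Mgmt differed between TBI and Sham by -0.01 and 0.01, which did not pass. In C-β-LG/DSF against TBI no gene of any of these lists was called.

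**Figure D5:**
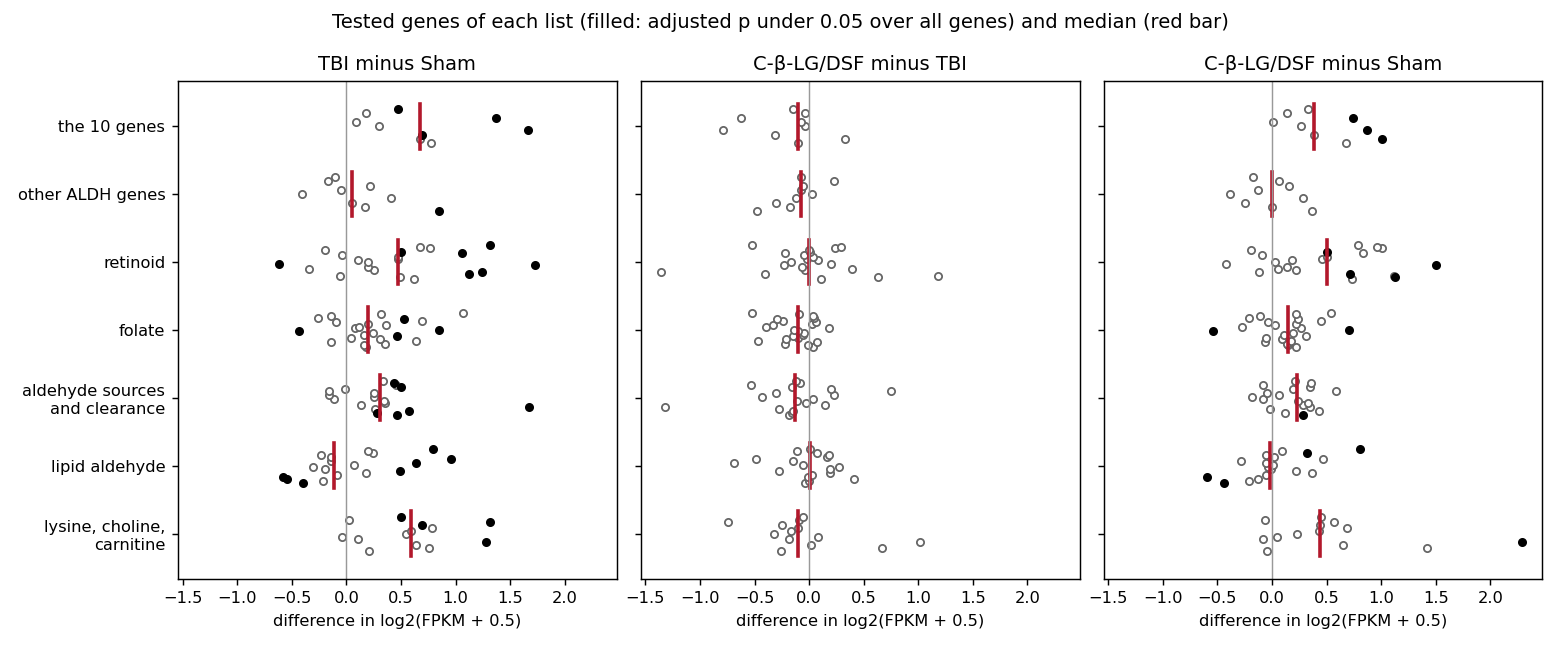
Log2 differences of the tested genes of each list in the 3 comparisons; filled points were called over all genes and the red bar is the list's median. In TBI minus Sham the median of the 10 genes (9 tested) is 0.68 and that of the other ALDH genes 0.05; no point is filled in C-β-LG/DSF minus TBI.

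For each member the genes of most similar profile were taken as those of highest Pearson r of log2(FPKM + 0.5) over the 9 libraries, which describes these libraries, with their group differences, and carries no p. Aldh1l2 was most like Slc29a3 (r = 0.998), a lysosomal nucleoside transporter gene, and Gngt2 (0.990). Aldh3b1 was most like Gatm (0.997), of creatine synthesis, and Glycam1 (0.994). Aldh1l1 was most like Thbs1 and Igfbp3 (both 0.988), and Aldh9a1 was most like the cytokine receptor gene Il6st (0.989) and Ston2 (0.986). Aldh2 was most like the matrix genes Nid1 (0.994) and Col1a2 (0.986), and Aldh1a2 most like Wnt7a (0.953) and Itga10 (0.947). Aldh1a1 was most like Chdh, the choline dehydrogenase gene (0.966), and Rcbtb1 (0.965). The neighbours of Aldh3a2 were Fam227b (0.910) and Fxyd2 (0.891), and those of Aldh7a1 were Zfp933 (0.965) and Chrnb1 (0.952).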

How the data were processed

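Total RNA of mouse brain was made into libraries with a strand-marking total RNA kit, per the labels. Reads were aligned with HISAT2 2.1.0 and genes quantified with Cufflinks 2.2.1, per the submitters' processing notes. The authors deposited FPKM per gene and library, with the bounds of an interval around each value. The genome build is not given in the sources used here; identifiers match GRCm38 (22452 of 22482 found). Spreadsheet dates were turned back into symbols for 26 genes, 1 emptied entry was dropped, and 23 repeated symbols were told apart by identifier.

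From the deposited FPKM, log2(FPKM + 0.5) was fitted with limma 3.58.1 in R 4.3.3: genes with FPKM of at least 0.5 in at least 3 of 9 libraries, 1 mean per group, 6 residual degrees of freedom, variances moderated with a mean trend, two-sided tests, Benjamini-Hochberg adjustment over all genes of a comparison. The procedure was tested on simulated data with independent noise and with changes placed in TBI only. Those data hold no shift shared by many genes of a library, such as that of the thalamic markers, so the test does not cover it. Exact permutation of 3 libraries against 3 cannot give p under 0.1. The alternatives were other pseudocounts, filters, scalings and fits, and each library left out; 2 on thalamic markers were added after seeing the data. Named genes are the 10 members, the other ALDH genes, the 3 genes of smallest p per list in TBI against Sham, and the 2 genes most like each member; genes named beside these were chosen after their values were seen. The members, lists and markers were chosen with earlier results of these data known, so none is independent support. Catalytic codons were found by a script in the translated reading frames of GENCODE M21 transcripts. The sequence of 1 member and the values of 1 gene that the naming rule takes are not reported here.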

Additional observations from a re-analysis of the deposited data

How the results depend on the processing

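Over the 9 tested members, 3 comparisons and 20 alternatives, 481 differences kept direction and side of the threshold, 35 lost the call, 10 gained it and 14 changed sign, all of the last uncalled. Aldh1l2 and Aldh3b1 in TBI against Sham kept their calls throughout. Members called in C-β-LG/DSF against Sham numbered 0 with quantile normalization, against 3. Those called in TBI against Sham numbered 2 in a fit of only those groups, against 4. Genes called in C-β-LG/DSF against Sham were 3444 in a fit of only those groups and 271 without the 3 libraries; in C-β-LG/DSF against TBI they were 2 with no filter, 1 with no mean trend and 1 without the 3 libraries. Leaving out single libraries gave 660 to 2931 genes and 0 to 4 members in C-β-LG/DSF against Sham, 2242 to 4373 genes and 2 to 5 members in TBI against Sham, and 0 to 2 genes in C-β-LG/DSF against TBI. These fits rest on fewer libraries, and no other cause was tested.

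Sign changes in C-β-LG/DSF against Sham were -0.11 and -0.19 for Aldh1a1 (without the 3 libraries, and with the thalamic covariate), and for Aldh3a2 -0.0071 with the covariate and -0.0407 to 0.0629 over single libraries left out. In C-β-LG/DSF against TBI they were -0.33 to 0.33 for Aldh1a1 over single libraries left out; 0.0115 with equal totals, 0.058 without the 3 libraries and -0.116 to 0.0397 over single libraries left out for Aldh2; and 0.0058 with equal totals and -0.121 to 0.0207 for Aldh7a1. The cause of these was not tested.

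Replicate numbers recur in all groups, but same-numbered libraries did not deviate together (correlations -0.09 to 0.33), so the numbers are not taken as pairs. With the replicate number as a block, 3519, 0 and 1627 genes were called in TBI against Sham, C-β-LG/DSF against TBI and C-β-LG/DSF against Sham, and 4, 0 and 3 members. FPKM without fragment counts leaves the depth of low genes such as Aldh1l2 and Aldh1a3 unknown.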

Other observations

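Outside the members, some genes of the lists stood nearer to Sham than to TBI in C-β-LG/DSF; they were chosen after their values were seen, and their differences between C-β-LG/DSF and TBI did not pass. Fabp5, which carries fatty acids and retinoic acid, had 60.0 ± 9.81 FPKM in C-β-LG/DSF, 168 ± 91.1 FPKM in TBI and 64.5 ± 4.45 FPKM in Sham (SD, n = 3 each). C-β-LG/DSF minus TBI was -1.36 in limma (SE 0.30, adjusted p = 0.394). Akr1b8 had 0.80 ± 0.267 FPKM in C-β-LG/DSF, 2.75 ± 0.581 FPKM in TBI and 0.52 ± 0.186 FPKM in Sham, a C-β-LG/DSF minus TBI difference of -1.32 (SE 0.23, adjusted p = 0.394). Crym, a thyroid hormone binding protein that also acts as a ketimine reductase in lysine metabolism, went the other way, with 78.8 ± 18.7 FPKM in C-β-LG/DSF, 45.2 ± 31.8 FPKM in TBI and 15.5 ± 2.103 FPKM in Sham. Its difference from Sham was 2.30 in C-β-LG/DSF (adjusted p = 0.00933) and 1.28 in TBI (adjusted p = 0.0484), and between C-β-LG/DSF and TBI it was 1.01 (adjusted p = 0.407).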
